A study of Canis lupus familiaris with 10 samples.

Results

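The 8 genes described here encode enzymes of tryptophan catabolism and secreted or surface proteins that dampen immune responses. They are IDO1, KMO and KYNU of the kynurenine pathway, the secreted proteins FGL2, IL10, LGALS3 and LGALS9, and the surface protein VSIR. They were chosen by symbol among the 23266 genes of the table, and all 8 were found. IDO1 and FGL2 were picked because they differ in opposite directions between the stages compared below. For this pair the difference between the stages is therefore a description without a test.

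Expression was measured by QuantSeq 3′ sequencing in 10 formalin-fixed, paraffin-embedded (FFPE) canine cutaneous histiocytomas (CCH). CCH is a benign skin tumor of dogs, derived from precursors of epidermal Langerhans cells, that regresses spontaneously while lymphocytes enter it. The study compared an early stage (group 1 of the histological scheme, before lymphocytes enter, n = 5) with a late stage (group 3, labeled as enriched in lymphocytes, n = 5), and asked how well 2 ways of measuring RNA match in such tissue. All tumors were archived surgical specimens of pet dogs, and no treatment is named in the labels. The early tumors came from 2 dogs of the breed French Bulldog, a Goldendoodle, a Terrier and a Boxer, aged 0.5 to 5 years where the age is given (n = 4). The late tumors came from a Rottweiler, a Beagle, a Pug, a Bullterrier and a Jack Russell Terrier aged 1.5 to 9 years. The 2 stages thus come from different dogs of different breeds, and no tumor was followed over time. Whole cross sections of trimmed tumor were used, so that in each value fewer cells of a type and less RNA per cell cannot be told apart.

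IDO1 encodes indoleamine 2,3-dioxygenase, the enzyme that opens the ring of tryptophan and is induced by interferon gamma in dendritic cells and macrophages. Kynurenine, which is formed from its product, is passed on by KMO, a hydroxylase, and by KYNU, a hydrolase. Loss of tryptophan and the gain of kynurenine, which binds the aryl hydrocarbon receptor, both restrain T cells. IL10 is the classical anti-inflammatory cytokine of myeloid and T cells, and FGL2 is a fibrinogen-like protein that regulatory T cells and macrophages can secrete. LGALS3 and LGALS9 are galectins, lectins that bind sugars on the surface of T cells, and VSIR encodes VISTA, an inhibitory immune checkpoint protein of myeloid and T cells.

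Values are normalized read counts, that is, reads divided by 1 size factor per library by the authors. Since QuantSeq 3′ yields 1 fragment per transcript, they were not divided by length. The libraries held between 2973125 and 4439709 reads assigned to genes, as recovered from the values. The numbers of trimmed reads that the paper gives are higher. A value of 0 is compatible with up to 3 reads, which correspond to 2.36 to 3.22 on this scale. The late libraries had fewer assigned reads (mean 3121300 against 3602520, exact two-sided permutation test, p = 0.0238, n = 5 per stage). They also had RNA of higher DV200, the percentage of longer RNA fragments (73.2% ± 2.09 against 68.5% ± 2.46, SD, exact two-sided permutation test, p = 0.0238, n = 5 per stage). The study extracted the RNA of the 2 stages in different batches, and effects of extraction batch and of stage cannot be told apart. The early label did not match the data fully, since the summed level of 12 T-cell genes reached 2527 in early library 3 and 1767 in early library 4, against 82.8, 836 and 286 in early libraries 1, 2 and 5. In the late libraries this sum lay between 3913 and 6583. Of the Langerhans cell list, 6 genes could be tested. CD1A8, a dog gene of the CD1 family that presents lipids, differed most among them in ratio, with means of 180 (early) and 16.8 (late). Every late value of CD1A8 and of FLT3 (means 292 and 40.6) lay below all early ones. AIF1 went the other way (means 400 and 597), with every late value above all early ones. The stages overlapped for CD1A6, CDH1 and EPCAM. CD207, the gene of langerin, was not found under that symbol.

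**Figure D1:**
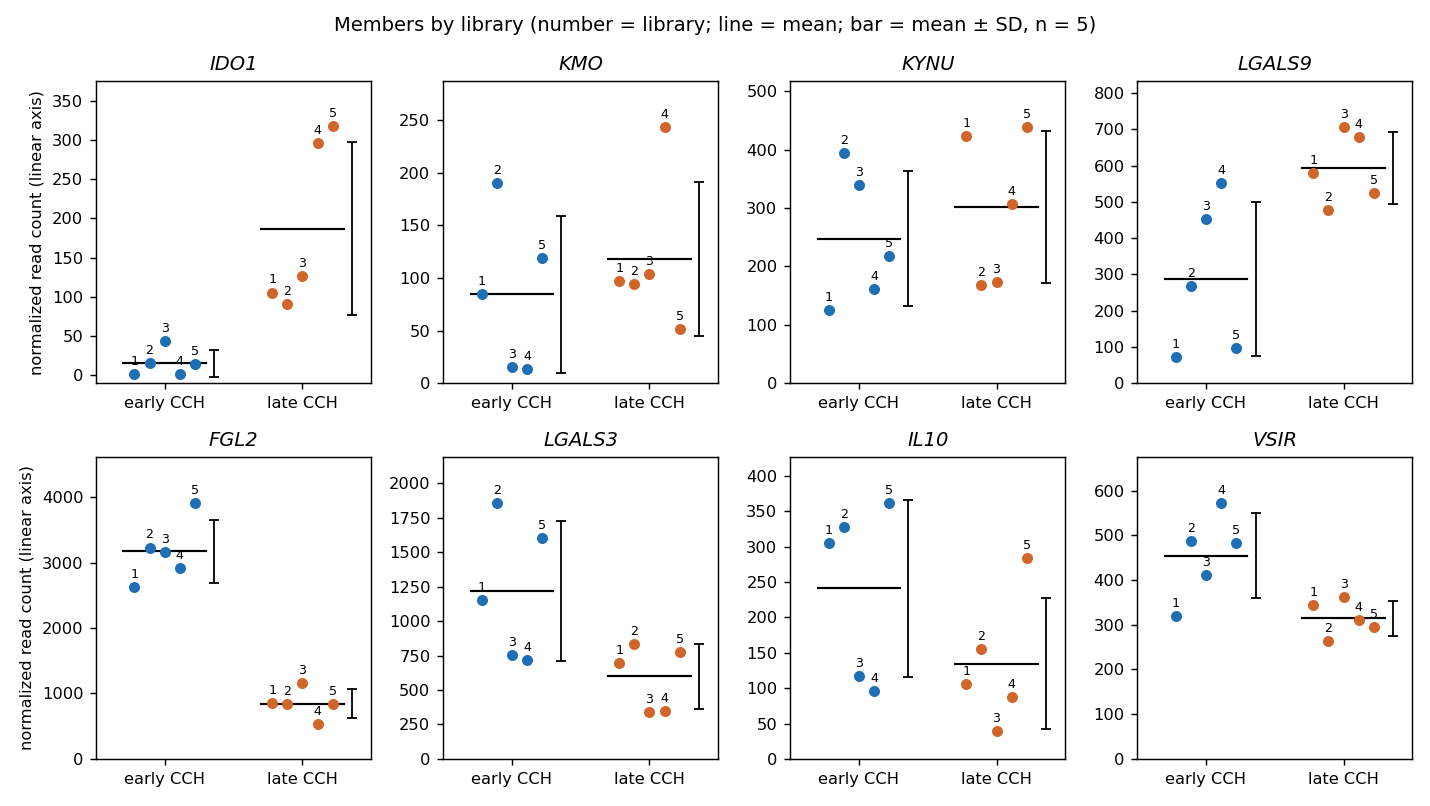
Normalized read count (linear axis, y) of each of the 8 genes in the 5 early and 5 late CCH libraries, where a point is a library with its number, the line is the mean and the bar is the mean ± SD. The stages do not overlap for IDO1 and FGL2, which were picked on this contrast, and they overlap for the other 6 genes.

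IDO1 was low in the early stage and higher in every late library. The early libraries 1 to 5 held 0.952, 14.9, 43.4, 1.58 and 14.0, which is between 1 and 48 reads per library and 80 reads in all. The late libraries 1 to 5 held 105, 90.4, 126, 296 and 318, which is between 95 and 303 reads. The lowest late library was above the highest early library, and late libraries 4 and 5 stood above the other late libraries. The early mean was 15.0 ± 17.2 and the late mean 187 ± 110 (SD, n = 5), a ratio of 12.5. The log2 fold change (log2FC), which is late minus early on the scale of log2(value + 1) throughout, was 4.21 ± 0.78 (SE). By mean level IDO1 ranked 11362 of the 12397 genes tested early and 3319 late.

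KMO and KYNU, which act downstream of IDO1, did not share this pattern. KMO measured 84.7, 190, 15.4, 13.4 and 119 in the early and 97.4, 94.2, 104, 243 and 51.4 in the late libraries. The early values were spread over a 14.2-fold range with libraries 3 and 4 lowest, and 4 of the 5 late values lay within the early range. The mean of KMO was 84.5 ± 74.4 early and 118 ± 73.1 late (SD, n = 5), and the log2FC was 0.95 ± 0.69 (SE), with a 95% confidence interval from −0.55 to 2.45 (limma, adjusted p = 1). When early libraries 3 and 4 were left out together, the log2FC of KMO turned to −0.26. They held its lowest early values, so a fall was set by the choice.

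KYNU measured 125, 394, 339, 161 and 218 in the early and 423, 167, 173, 307 and 439 in the late libraries. Both stages held low and high libraries, and 2 late libraries lay above all early ones. The early mean was 247 ± 116 and the late mean 302 ± 130 (SD, n = 5), with a log2FC of 0.30 ± 0.37 (SE) and a 95% interval from −0.49 to 1.09 (limma, adjusted p = 1). KYNU was above IDO1 in every library. There were between 7.81 and 131 reads of KYNU for each read of IDO1 in the early libraries, and between 1.04 and 4.01 in the late libraries. IDO1 was picked on this contrast, so nothing is read from this shift.

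FGL2 was the most abundant of the 8 genes in both stages and was lower in every late library. The early libraries 1 to 5 held 2624, 3231, 3167, 2917 and 3914, and the late libraries held 853, 844, 1156, 537 and 835. The highest late library was well below the lowest early library, and late library 4, which held the second highest IDO1 value, had the lowest FGL2 value. The mean of 3171 ± 480 in the early stage was 3.75-fold that of 845 ± 219 in the late stage (SD, n = 5), and the log2FC was −1.94 ± 0.19 (SE). FGL2 was number 131 of the 12397 genes tested by mean level in the early and number 526 in the late stage. For each read of IDO1 there were between 72.9 and 2756 reads of FGL2 in the early libraries, and between 1.82 and 9.34 in the late libraries. Both genes were picked for their opposite directions on this contrast, so the shift of this ratio follows from the choice.

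IL10 was detected in every library. It measured 305, 328, 117, 96.1 and 362 in the early and 106, 155, 39.7, 87.9 and 283 in the late libraries. Early libraries 3 and 4 were as low as most late ones, and late library 5 came close to the upper 3 early libraries. Its early mean was 241 ± 125 and its late mean 134 ± 92.9 (SD, n = 5), with a log2FC of −0.92 ± 0.51 (SE) and a 95% interval from −2.02 to 0.18 (limma, adjusted p = 1).

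The galectins LGALS3 and LGALS9 differed between the stages with opposite signs, and neither difference passed the adjustment over all genes. LGALS3, which binds to N-glycans of the T-cell receptor, measured 1151, 1859, 756, 718 and 1605 in the early and 696, 833, 341, 348 and 778 in the late libraries. Late libraries 1, 3 and 4 lay below all early ones, and early libraries 3 and 4 lay within the late range. Its early mean was 1218 ± 507 and its late mean 599 ± 238 (SD, n = 5). The log2FC of LGALS3 was −1.02 ± 0.33 (SE), with a 95% interval from −1.75 to −0.30 (limma, adjusted p = 0.562).

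LGALS9, described as a ligand of the inhibitory T-cell protein TIM-3, measured 72.4, 269, 452, 551 and 96.6 in the early and 579, 478, 706, 680 and 525 in the late libraries. Late libraries 1, 3 and 4 lay above all early ones. The late values were close together (1.48-fold range), while the early values were spread over a 7.62-fold range with libraries 3 and 4 highest. The early mean was 288 ± 212 and the late mean 593 ± 98.2 (SD, n = 5), and the log2FC was 1.44 ± 0.49 (SE), with a 95% interval from 0.38 to 2.49 (limma, adjusted p = 0.637). Without early libraries 3 and 4, left out together after the data had been seen, LGALS9 had a log2FC of 2.24. These libraries held its highest early values, so a larger difference was set by the choice, and nothing is read from it. The ratio of LGALS3 to LGALS9 was 15.9, 6.91, 1.67, 1.30 and 16.6 in the early libraries and between 0.483 and 1.75 in the late libraries, so that early libraries 3 and 4 had ratios within the late range.

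VSIR showed a small difference with little spread. It measured 319, 487, 411, 573 and 482 in the early and 344, 264, 361, 310 and 295 in the late libraries. Early library 1 lay within the late range, and late libraries 2, 4 and 5 lay below all early ones. Its early mean was 454 ± 94.9 and its late mean 315 ± 38.9 (SD, n = 5), and the log2FC was −0.51 ± 0.17 (SE), with a 95% interval from −0.88 to −0.14 (limma, adjusted p = 0.602).

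**Figure D2:**
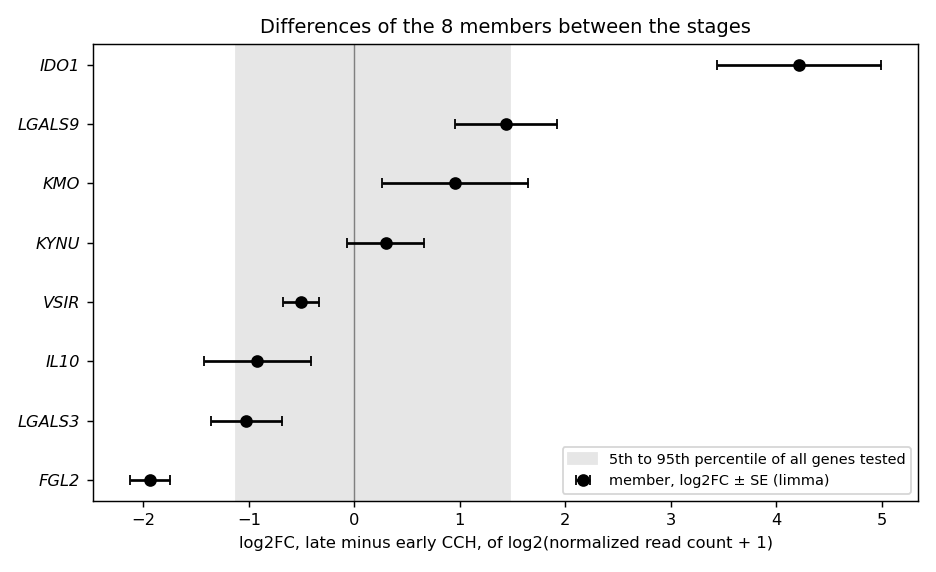
Log2FC (late minus early CCH, x) of the 8 genes with its SE from limma, sorted by value, over a gray band from the 5th to the 95th percentile of all genes tested (−1.12 to 1.47). IDO1 (4.21) lies above the band, FGL2 (−1.94) lies below it, and the other 6 genes lie inside it. IDO1 and FGL2 were picked for their opposite directions on this contrast, so nothing is read from their places.

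A gene was called when its adjusted p was at most 0.05 and its log2FC at least 1 in size. All 8 genes passed the filter on low values, and 1 of them, FGL2, met this rule. The share of all genes tested that met it was 2.17% (1.06% as higher and 1.11% as lower in the late stage). The stages did not overlap for 1 of the 8 genes higher in the late stage (IDO1; the share of all genes tested was 5.91%) and for 1 lower (FGL2; the share was 6.05%). The rule was met by 2 of the 8, FGL2 and IDO1, with Benjamini-Hochberg adjustment (9.04% of all genes) and likewise with DESeq2 (6.53%). Because FGL2 and IDO1 were picked on this contrast, these counts were set by the choice, and nothing is read from them. Of the other 6 genes, limma, edgeR and DESeq2 called 0. Unadjusted p-values of at most 0.05 were found with limma for 3 of these 6 genes, LGALS3, LGALS9 and VSIR, and for 30.9% of all genes tested. The log2FC was above 0 for 4 of the 8 genes and below 0 for 4, with a median of −0.11 beside −0.004 for all genes tested.

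The order of the mean levels in the early stage was FGL2, LGALS3, VSIR, LGALS9, KYNU, IL10, KMO and IDO1. The ranges of FGL2 and LGALS3 and those of LGALS3 and VSIR did not overlap, whereas all other neighbors in this order overlapped. In the late stage the order was FGL2, LGALS3, LGALS9, VSIR, KYNU, IDO1, IL10 and KMO, and of these neighbors LGALS9 and VSIR did not overlap. FGL2 was above LGALS3 in each of the 10 libraries, although the means of the pair lay closer together in the late stage (845 and 599) than in the early stage (3171 and 1218).

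Within the stages the 8 genes varied to a very different extent. IDO1 and KMO had a spread within stages (pooled SD of the log2 values) at the 96.2th and 94.4th percentile of all genes tested, followed by IL10 at 87.2, LGALS9 at 86.1, KYNU at 74.0 and LGALS3 at 69.5. FGL2 at 27.5 and VSIR at 15.9 were among the less variable genes. The early libraries had the same order for KMO and LGALS3, with library 2 highest, then 5, 1, 3 and 4. For IL10 libraries 5 and 2 changed places in this order, and for LGALS9 libraries 4 and 3 were highest. In the late stage KMO and LGALS3 did not share an order. From highest to lowest, the late libraries were 4, 3, 1, 2 and 5 for KMO and 2, 5, 1, 4 and 3 for LGALS3. The late order of IL10 was 5, 2, 1, 4 and 3. With 5 libraries per stage no correlation was computed.

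**Figure D3:**
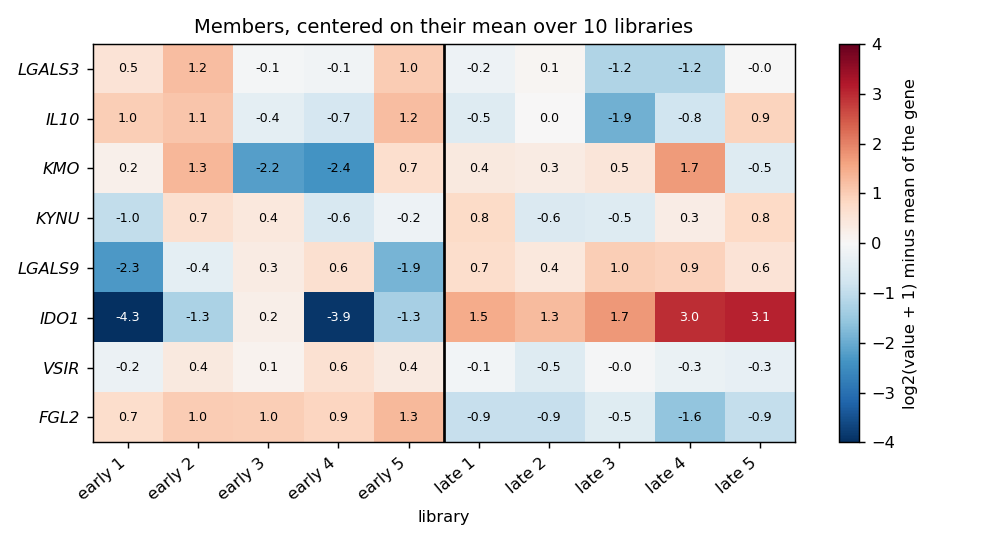
Log2(value + 1) of the 8 genes (rows) in the 10 libraries (columns), each gene centered on its mean over all libraries, with the value written in each field and colored from blue (below the mean) to red (above the mean). Early libraries 3 and 4 are low in KMO (−2.2 and −2.4) and slightly below the mean in IL10 and LGALS3, while early libraries 1, 2 and 5 are above it in these 3 genes.

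T-cell markers differed between the stages. Their sum had nearly the same order as LGALS9 among the early libraries, but not among the late ones. All 12 genes of the T-cell list had a log2FC above 0, with a median of 3.37, and none of them was at 0 in every library. For 10 of the 12 the stages did not overlap, and 1 was called by limma, CD6, a surface receptor of T cells. An unadjusted p of at most 0.05 was found for all 12 with limma, and edgeR called 1 and DESeq2 called 7. Over all genes tested, 30.9% had such a p, limma called 2.17%, DESeq2 called 6.53% and edgeR called 177 of 12397. The stages did not overlap for 5.91% as higher and 6.05% as lower in the late stage. These shares also stand beside the counts of the lists below. CD28, the costimulatory receptor, had the largest log2FC of the list (4.00, limma, adjusted p = 0.0797) and CD8A, the coreceptor of cytotoxic T cells, the smallest (2.29, limma, adjusted p = 0.448). Ordered by their summed T-cell level from low to high, the early libraries were 1, 5, 2, 4 and 3, and LGALS9 had the order 1, 5, 2, 3 and 4. In the late stage the T-cell order was 3, 2, 5, 1 and 4, and that of LGALS9 was 2, 5, 1, 4 and 3. Late library 3 was thus lowest in the T-cell sum and highest in LGALS9. IDO1 was highest in early library 3 (43.4) but was 1.58 in early library 4, which had the second highest T-cell sum of the early stage.

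Other cell lists were measured in the same way. The summed regulatory T-cell list lay between 61.9 and 308 in the early and between 425 and 747 in the late libraries, with TNFRSF4 highest (log2FC 3.38) and IL2RA lowest (0.53). Limma called TNFRSF4, edgeR called 0 and DESeq2 called 2 of its 6 genes. The mature dendritic cell list, a cell type known to express IDO1, lay between 430 and 1705 in the early and between 1668 and 3272 in the late libraries, and all 7 genes tested had a log2FC above 0, from 0.72 for MARCKSL1 to 2.38 for CCR7. The macrophage list overlapped between the stages (2663 to 11752 against 6269 to 11886), with MSR1 highest (2.25) and MRC1 lowest (−0.88). The Langerhans cell list lay between 1104 and 2121 in the early and between 748 and 1156 in the late libraries, with CD1A8 lowest (−3.80), AIF1 highest (0.57) and FLT3, the receptor of a dendritic cell growth factor, called as lower by limma. Of this list edgeR called 0 and DESeq2 called 2. The part of these cells in the values of the 8 genes was not tested.

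**Figure D4:**
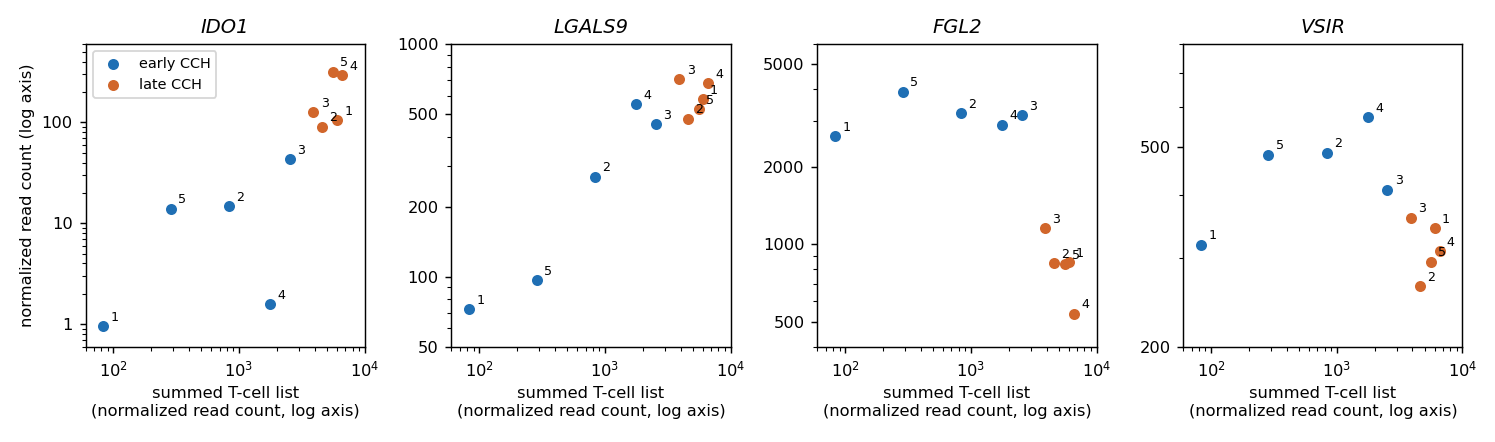
Normalized read count of IDO1, LGALS9, FGL2 and VSIR (log axis, y) against the summed T-cell list (log axis, x) in the 5 early (blue) and 5 late (orange) libraries, with the number of each library. The late libraries lie between 3913 and 6583 on the x axis, and FGL2 stays between 2624 and 3914 in the early libraries while their T-cell sums run from 82.8 to 2527.

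In the rest of the kynurenine pathway no difference was detected. Of the 12 genes listed, 11 were found and 7 tested, with a median log2FC of 0.26 and 0 called by limma. The 4 tested genes that are not described above (KYAT1, KYAT3, AADAT and HAAO) had a median of −0.05. None of these 4 was called by limma, edgeR or DESeq2, and 0 had an unadjusted p of at most 0.05. AADAT, an aminotransferase that makes kynurenic acid, was lowest (−0.41 ± 1.06, SE). The alternative first enzymes were scarce. IDO2 lay between 0 and 22.5, TDO2 did not exceed 2.98, and QPRT, the last enzyme before NAD synthesis, did not exceed 0.951. ACMSD was at 0 in all 10 libraries.

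Among transporters, other users of tryptophan and sensors of kynurenine, 15 of 18 genes were found and 11 tested. The median log2FC was 0.59, and limma called 0. An unadjusted p of at most 0.05 was found for 4 higher and 1 lower gene (30.9% of all genes tested). On the recovered reads edgeR called 0 and DESeq2 called 3 (6.53% of all genes tested). IL4I1, an amino acid oxidase that also degrades tryptophan and phenylalanine, was highest in this list (2.88 ± 0.74, SE; limma, adjusted p = 0.224). It measured between 0.930 and 51.2 in the early and between 39.9 and 92.0 in the late libraries. AHRR, the repressor of the aryl hydrocarbon receptor, was lowest (−2.49 ± 0.52, SE; limma, adjusted p = 0.0859) and did not overlap, with 32.4 to 58.0 in the early and 0.994 to 15.2 in the late libraries. The stages also did not overlap for WARS, the tryptophanyl-tRNA synthetase (log2FC 1.35), and CYP1B1, a textbook target of the receptor (2.11, limma, adjusted p = 0.077). Both were higher in the late stage and named after their values were seen. CYP1B1 was the only listed target tested with a log2FC above 0. The targets TIPARP (−0.25) and NQO1 (−0.87) were below 0, as was AHRR, also listed as a target. CYP1A1 and CYP1A2 were below the filter and were not tested.

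Of the galectin family, 9 of 10 genes were found and 7 tested, with a median log2FC of −0.17. LGALS9 and LGALS3 had the highest and the lowest log2FC of these 7. LGALS12 was below the filter on low values and was not tested, with 0 to 4.65 in the early and 5.71 to 15.9 in the late libraries, and it was named after its values were seen. None of the other 5 was called by limma, edgeR or DESeq2, and 1 had an unadjusted p of at most 0.05 (30.9% of all genes tested). This gene, LGALS8, did not overlap between the stages, with 324 to 427 in the early and 439 to 643 in the late libraries (log2FC 0.52 ± 0.14, SE; limma, adjusted p = 0.282), and it was named after its values were seen.

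Among receptors and partners of IL10, FGL2, the galectins and VISTA, 16 of 17 genes were found and 13 tested, with a median log2FC of 0.21. Limma and edgeR called 0 and DESeq2 called 2 (6.53% of all genes tested). With limma 4 higher genes and 1 lower gene had an unadjusted p of at most 0.05, beside 30.9% of all genes tested. PDCD1, the gene of the checkpoint receptor PD-1, was highest (2.90 ± 1.13, SE; limma, adjusted p = 1), with 0 to 241 in the early and 119 to 402 in the late libraries. IL10RA, the ligand-binding chain of the IL10 receptor, was lowest (−0.46 ± 0.21, SE; limma, adjusted p = 1). The stages did not overlap for the second chain of this receptor, IL10RB (log2FC 0.71), and for LAG3, a checkpoint receptor (2.17), both named after their values were seen. HAVCR2, the gene of TIM-3, did not exceed 2.05 in any library. The paper lists HAVCR2 as missing from its QuantSeq 3′ data in its other tumor comparison, but not in that of CCH. Whether so few reads mean low expression was not tested.

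Of 21 other soluble and metabolic immunoregulators, all were found and 18 tested, with a median log2FC of 0.24. Limma called 1 of them, ADA, adenosine deaminase, which removes the immunosuppressive nucleoside adenosine. ADA measured 115, 166, 175, 123 and 129 in the early and 392, 381, 213, 386 and 476 in the late libraries. Every late value was above all early ones, and the log2FC was 1.35 ± 0.22 (SE; limma, adjusted p = 0.0318). This call was lost when any of early libraries 1, 4 and 5 or late libraries 1, 2, 4 and 5 was left out. NOS2, the inducible nitric oxide synthase, was highest (2.30 ± 0.91, SE; limma, adjusted p = 1), and NT5E, which makes adenosine, was lowest (−1.79 ± 0.46, SE; limma, adjusted p = 0.211). NT5E did not overlap, nor did ENTPD1 (−1.05), which acts before it. The stages also did not overlap for TGFB2, a transforming growth factor beta (1.89), and EBI3, a subunit of heterodimeric cytokines (2.07), both higher in the late stage and, like ENTPD1, named after their values were seen. In this list 5 higher and 5 lower genes had an unadjusted p of at most 0.05 with limma (30.9% of all genes tested). For this list edgeR called 1 and DESeq2 called 5 (6.53% of all genes tested with DESeq2).

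**Figure D5:**
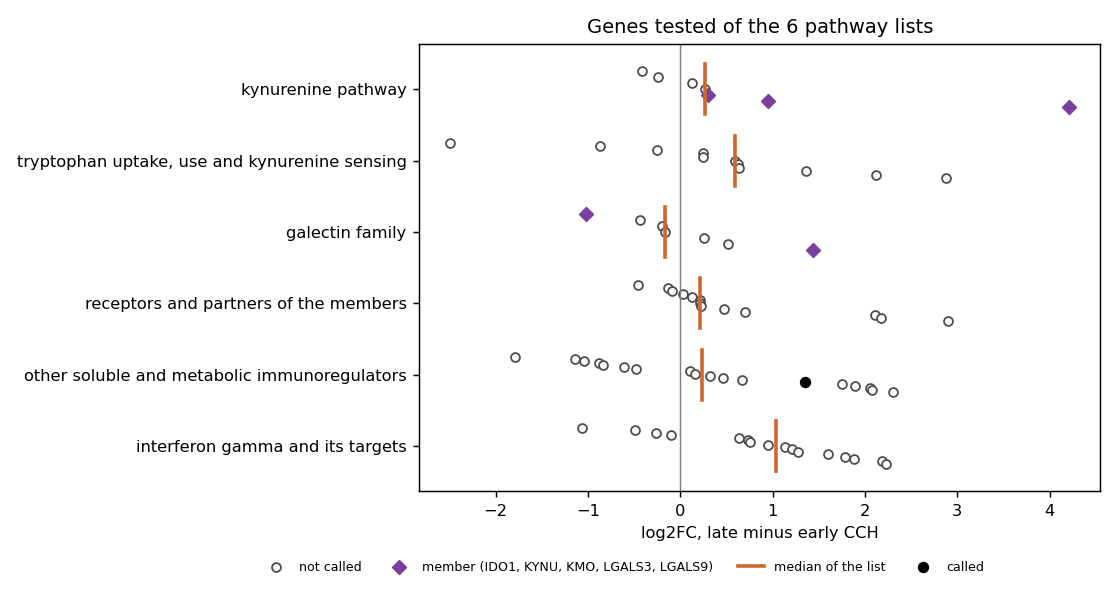
Log2FC (late minus early CCH, x) of the genes tested in the 6 pathway lists (y), where open circles were not called, the filled circle (ADA) was called, diamonds are members of the 8 genes and orange lines are list medians. The median is highest for interferon gamma and its targets (1.04) and below 0 for the galectin family (−0.17).

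Interferon gamma, the inducer of IDO1 in textbook knowledge, was listed with 18 genes of its receptor, signal path and targets. Of these 19 genes 17 were found and 16 tested, and 12 had a log2FC above 0, with a median of 1.04. Limma and edgeR called 0 and DESeq2 called 3 (6.53% of all genes tested). With limma 11 higher genes and 1 lower gene had an unadjusted p of at most 0.05, beside 30.9% of all genes tested. SOCS1, the feedback inhibitor, was highest (2.23 ± 0.70, SE; limma, adjusted p = 0.492), and IFNGR1, the ligand-binding receptor chain, was lowest (−1.07 ± 0.47, SE; limma, adjusted p = 1). The summed list lay between 4642 and 10876 in the early and between 11646 and 14308 in the late libraries. A link of this list with IDO1 was not tested.

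The profiles closest to those of IDO1 and FGL2 were sought among the 11110 genes tested other than the 8 and symbols starting with LOC, by the root mean square difference of centered log2 values over the 10 libraries. Closest to IDO1 were IL21, a cytokine of helper T cells (0.82), CXHXorf65 (0.95) and the chemokine CCL3 (1.04), beside a median of 2.53 over these genes. Closest to FGL2 were RASGRP4, a Ras activator of myeloid cells (0.22), the retinoic acid receptor gene RARA (0.23) and the iron reductase gene CYBRD1 (0.28), beside a median of 1.12. The stage difference of these 6 genes follows from how they were chosen.

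Reads of neighboring genes could enter some of these values, because the use of strand in the counting is not given in the sources used here. In the RefSeq annotation of the more recent assembly UU_Cfam_GSD_1.0, FGL2 overlaps CCDC146, VSIR overlaps CDH23, KMO overlaps OPN3, IDO1 overlaps LOC475575, IL10 overlaps LOC111096602, and NOS2 lies within 2000 bases of LGALS9. CCDC146 had a mean of 96.6 in the early stage and 37.6 in the late stage, far below that of FGL2. The means of CDH23 (7.14 and 15.3), OPN3 (22.7 and 13.4), LOC475575 (0.186 and 2.93), LOC111096602 (11.95 and 31.95) and NOS2 (5.91 and 26.7) were likewise below those of the overlapping or adjacent gene.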

How the data were processed

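The deposited table holds normalized read counts (a signal per gene and library), which the authors made by dividing counts by 1 size factor per library. Per the paper's methods and the labels, reads were trimmed with cutadapt, aligned with STAR to CanFam3.1, and counted with featureCounts, first on the RefSeq genes and then, for unassigned reads, on genes extended by 2000 bases. Reads with several mapping places were shared among them. Tool versions are not given in the sources used here. Of 21 columns, 10 carry a stage of this series. The other 11 were not used. Column names give the stage but not the sample, so libraries are numbered 1 to 5 only to name them. P-values measure the spread between these samples, each from a separate tumor.

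In these 10 columns 100% of the 166096 values above 0 were whole multiples of a single read within a relative tolerance of 1e-06, which gave back the reads. The main test was limma 3.58.1 (R 4.3.3) with a trended prior variance, fitted to log2(value + 1). The added 1 damps changes of values near 0. Even so, the log2FC of IDO1 was 4.21 with limma, against 3.65 with edgeR and 3.64 with DESeq2. LGALS9 had 1.44 against 1.06 and 1.05, and KMO had 0.95 against 0.50 and 0.48. The other described genes differed less between these methods. A gene entered the test if 5 or more libraries reached a value of 10, as 12397 did. P-values were adjusted over all of them with the Benjamini-Yekutieli procedure, which the study also used. Calls required an adjusted p up to 0.05 together with a log2FC beyond 1 in either direction. As alternatives on the recovered reads, edgeR 4.0.16 called 177 genes and DESeq2 1.42.0 called 810, against 269 with limma. Other alternatives were the pseudocount (0.5 and 5), no filter or a mean of at least 50, other scalings, Benjamini-Hochberg adjustment, library weights, and leaving out each library. Leaving out early libraries 3 and 4 together was added after the data were seen. The scripts were tested on simulated data. Intervals and limits for reads cover counting error only, where they rest on reads.

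The 8 genes and all lists were chosen with earlier results of these data known. The genes named are the 8, those called in a pathway list and the highest and lowest log2FC of each list, plus the 3 profiles closest to IDO1 and FGL2. Other genes are named because their stages did not overlap, because few or no reads were found, or because a call came or went, all after their values were seen. TIPARP and NQO1 are named beside CYP1B1 as listed targets of the same receptor. Lists are described by counts and medians. The lists of B cells, plasma cells, cytotoxic lymphocytes, neutrophils, mast cells, keratinocytes, endothelium and fibroblasts are given with the other observations. Some values of single list genes are not reported here. No sequence and no coordinates are given.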

Additional observations from a re-analysis of the deposited data

Results flagged for a closer look

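In 16 groups of 5 libraries (8 genes in 2 stages), 1 library stood far from the others of its group. KMO measured 243.4 in late library 4, where the next value was 103.6, so that the gap made up 0.728 of the whole range of the late stage, above the limit of 0.71 for 5 samples. Chance alone marks about 1 in 20 such groups. Without late library 4 the log2FC of KMO was 0.65 in place of 0.95. It moved further without early library 4 (0.47), early library 3 (0.52) or early library 2 (1.41). The same library held 296 for IDO1, the second highest value, and 537 for FGL2, the lowest value of all libraries.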

How the results depend on the processing

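The log2FC of all 8 genes kept its sign under every alternative but 1, the one added after the data were seen. Over all of them, IDO1 ran from 3.50 to 4.80 and FGL2 from −2.06 to −1.78. With early libraries 3 and 4 left out together KMO turned to −0.26 and LGALS9 was called at 2.24. These libraries held the lowest early values of KMO and the highest of LGALS9, so the direction of both shifts follows from the choice. In that fit 3 of the 8 genes were called (FGL2, IDO1 and LGALS9). The counts were 1 for the kynurenine pathway, 1 for tryptophan use and sensing (IL4I1) and 1 for galectins (LGALS9). They were 1 for receptors (LAG3), 0 for other immunoregulators (ADA lost) and 1 for interferon gamma (NLRC5). FGL2 alone was called as reported above, and 2 genes, FGL2 and IDO1, with a pseudocount of 5, column totals, Benjamini-Hochberg adjustment or DESeq2, where the kynurenine pathway count was 1 (IDO1). These calls describe the pair picked on this contrast and support nothing. Over all genes 269 calls became 1121 with Benjamini-Hochberg adjustment, 418 with library weights, 177 with edgeR and 810 with DESeq2. Tryptophan use and sensing had 0 calls, but 1 with a pseudocount of 5, 4 with Benjamini-Hochberg and 3 with DESeq2. Receptors had 0, but 2 with Benjamini-Hochberg, 1 with library weights and 2 with DESeq2. Other immunoregulators had 1, but 6 with Benjamini-Hochberg and 5 with DESeq2, and interferon gamma had 0, but 6 and 3. The causes were not tested.

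When 1 library was left out at a time, calls over all genes ran from 49 (without early library 5) to 260, with 54, 66, 75, 87 and 113 without late library 2, late 4, early 1, late 1 and late 5. The counts ran from 1 to 2 for the 8 genes and from 0 to 1 for the kynurenine pathway (IDO1 added without early library 3), and from 0 to 1 for tryptophan use and sensing (IL4I1 without early library 4), receptors (TLR8 without early library 2), other immunoregulators and interferon gamma (NLRC5 without early library 3). Galectins stayed at 0. The log2FC ran from 0.09 to 0.50 for KYNU, from 0.47 to 1.41 for KMO and from −1.26 to −0.56 for IL10. No paired analysis was possible because replicate numbers are missing from the column names, and because the stages come from different dogs. Neither a replicate block nor DV200 as a covariate could be fitted. The replicate numbers of the labels count separate tumors and define no pairs. Batch, breed, age and RNA quality go with stage in part or in full, and IDO1 in the early stage rests on 80 reads, so its fold is imprecise.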

Other observations

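The remaining cell lists gave the following summed levels. Cytotoxic lymphocyte genes lay between 194 and 4591 in the early and between 6359 and 14365 in the late libraries, with GZMK highest (log2FC 3.63) and GZMA lowest (1.14), and 2 of the 8 tested, KLRK1 and EOMES, were called as higher by limma, while edgeR called 0 and DESeq2 called 5. B-cell genes lay between 52.6 and 238 in the early and between 430 and 2398 in the late libraries, with CD79B highest (4.67). Mast cell genes lay between 127 and 301 in the early and between 48.3 and 93.9 in the late libraries, with FCER1A, the receptor chain for IgE, lowest (−2.47) and called, and KIT highest (0.70). The lists of plasma cells (POU2AF1 2.48 to XBP1 −0.17), neutrophils (CSF3R 1.47 to S100A8 −1.19), keratinocytes (KRT10 −0.88 to DSG1 −1.56), endothelium (EGFL7 1.12 to TEK −0.48) and fibroblasts (PDGFRB 0.30 to LUM −0.47) overlapped between the stages, and limma and edgeR called 0 of their genes while DESeq2 called 1, of the endothelium. With limma 5 of these genes, 3 of them of the endothelium, had an unadjusted p of at most 0.05, beside 30.9% of all genes tested. Keratinocyte sums ran from 866 to 15515 in the early and from 630 to 7583 in the late libraries, and fibroblast sums from 7362 to 59944 and from 10484 to 35435.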
